A study of Mus musculus with 4 samples.

Results

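The genes described here are 41 mouse genes whose products build and remodel chromosomes in the prophase of meiosis. They were chosen by symbol from a list written for their function, and their values were read for the same gene identifiers in the deposited count table, where they are 41 of 55335 genes. All 41 are protein coding in GENCODE release M21 (GRCm38) and lie on 15 chromosomes. They were grouped by the step they serve, which gave 6 genes of sister chromatid cohesion, 5 of the chromosome axis, 7 of double-strand break formation, 6 of strand exchange, 4 of crossover formation, 5 of synapsis, 3 of telomere attachment and 5 of entry into and progression through prophase.

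RNA-seq was done on AB2.2, a line of mouse embryonic stem cells (ESCs), in 2 control libraries and 2 libraries of cells given 50 mM lactate for 24 h. Both groups grew on fibroblast feeders from mouse embryos, with the GSK3 inhibitor CHIR99021 at 3 μM, the MEK inhibitor PD0325901 at 1 μM, leukemia inhibitory factor (LIF) at 1000 U/mL and serum at 15%. All values thus come from a single line held in inhibitors, and feeder cells may be part of the RNA. The labels do not say whether the libraries of a group came from separate cultures, and p-values then measure the spread between these libraries only. Gene counts were between 18067562 and 19077885 reads per library. Reads are given below as counted, and CPM are reads scaled to a common library size with TMM factors. Mitochondrial genes took 5.48% and 5.72% of the gene reads in the first control and the first lactate library and 2.43% and 2.82% in the second ones. Of the 37 members with enough reads to be tested, 25 had a higher CPM in the first than in the second library of both groups (67.6%, against 36.1% of the 18661 genes tested), and 5 had a lower one in both (13.5%, against 38.9%). The part of this library difference in the results was not tested.

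Meiosis separates homologous chromosomes so that a gamete receives a single set, and prophase is the stage in which homologs find each other and recombine. Meiotic cohesin and axis proteins fold each chromosome into loops, SPO11 and its partners cut the DNA, the recombinase DMC1 and its helpers use the homolog to repair the breaks, and the synaptonemal complex zips the homologs together. Most of these genes are kept largely silent outside the germline by DNA methylation and by Polycomb-type repressors, and in mouse ESCs a repressor complex with MAX, MGA and E2F6 is known to occupy many germline promoters. MAX with MGA binds the E-box CACGTG, and E2F6 binds sequences related to GCGGGA.

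Promoter sequences were taken from the RefSeq promoter table on GRCm38.p6, which spans 250 bases before to 50 bases after each transcription start. Of the 41 members, 34 matched this table, and Spo11, Meiob, Tex15, Terb2, Majin, Fbxo47 and Kctd19 had no entry. GCGGGA, searched on both strands, stood in the window of 21 of 34 members (61.8%), against 38.1% of the tested genes with a window and 22.1% of all genes in the table. CACGTG reads the same on both strands and could share at most 1 end base with a GCGGGA match. It stood in 8 of 34 (23.5%), against 11.3% and 8.09%. These 8 were Stag3, Sycp3, Hormad1, Rec114, Sycp1, Syce2, Tex12 and Brdt, of which Brdt alone lacked GCGGGA. The median member window held 18 CpG dinucleotides, and the median tested gene 21. The 250 bases before the start are shown for 5 members. Sycp3 and Hormad1 are axis genes with both motifs in the same order, Sgo2b and Sgo2a are close copies that differed in the direction of their fold change, and Mei4 had neither motif. Sgo2a has 2 windows in the table, and the one at its annotated start is shown. Letters run 5′ to 3′ on the strand of the gene, and capitals mark CACGTG and GCGGGA or its complement TCCCGC.
Sycp3, chr10:88459337-88459586, plus strand: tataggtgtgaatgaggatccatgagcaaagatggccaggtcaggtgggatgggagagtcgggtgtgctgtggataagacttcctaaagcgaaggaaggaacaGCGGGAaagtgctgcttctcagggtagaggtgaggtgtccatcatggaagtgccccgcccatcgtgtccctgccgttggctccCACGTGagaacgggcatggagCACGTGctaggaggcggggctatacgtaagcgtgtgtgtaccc
Hormad1, chr3:95559427-95559676, plus strand: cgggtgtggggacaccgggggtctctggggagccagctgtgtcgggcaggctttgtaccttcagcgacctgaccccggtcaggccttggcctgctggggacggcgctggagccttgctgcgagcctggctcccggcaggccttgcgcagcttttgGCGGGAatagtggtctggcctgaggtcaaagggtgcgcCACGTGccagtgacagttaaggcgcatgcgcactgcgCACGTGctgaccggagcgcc
Sgo2b, chr8:63952171-63952420, minus strand: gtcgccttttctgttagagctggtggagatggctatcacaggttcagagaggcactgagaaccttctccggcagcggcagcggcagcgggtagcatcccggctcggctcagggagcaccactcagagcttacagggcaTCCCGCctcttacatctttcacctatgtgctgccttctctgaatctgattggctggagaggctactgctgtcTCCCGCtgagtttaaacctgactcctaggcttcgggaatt
Sgo2a, chr1:57995724-57995973, plus strand: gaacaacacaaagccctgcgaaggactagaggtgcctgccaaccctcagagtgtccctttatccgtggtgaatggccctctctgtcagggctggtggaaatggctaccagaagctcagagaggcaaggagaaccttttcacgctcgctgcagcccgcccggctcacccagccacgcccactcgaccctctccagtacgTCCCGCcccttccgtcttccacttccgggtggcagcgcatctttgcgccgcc
Mei4, chr9:81863420-81863669, plus strand: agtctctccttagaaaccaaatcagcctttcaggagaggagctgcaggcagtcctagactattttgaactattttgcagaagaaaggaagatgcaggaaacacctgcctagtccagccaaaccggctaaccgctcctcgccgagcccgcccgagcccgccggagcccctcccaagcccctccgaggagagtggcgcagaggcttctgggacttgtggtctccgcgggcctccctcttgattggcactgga

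A motif match here is a description of letters and not a bound site. Among the 34 genes with a window, GCGGGA was found in 7 of the 13 that were higher with lactate at an unadjusted p under 0.05 (53.8%) and in 14 of the other 21 (66.7%). CACGTG was found in 3 of these 13 (23.1%) and in 5 of the other 21 (23.8%). The other 21 include Rad21l, Mei1 and Syce3, which were not tested for a change and held neither motif.

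In control ESCs the members covered a wide range of levels. RSEM FPKM, a level per transcript length, averaged above 1 over both control libraries for 27 of the 41 and above 10 for 11. The highest means were those of Mnd1 (45.4 ± 9.52 FPKM, SD, n = 2), Stag3 (42.7 ± 0.0141), Syce2 (37.7 ± 0.0495), Sgo2a (37.0 ± 9.98), Trip13 (33.3 ± 4.67) and Rec114 (28.4 ± 1.64). In this order of control means, 32 of the 40 neighbouring pairs overlapped in their libraries, so most genes next to each other in this order did not differ beyond the spread of their libraries. At the other end, Spo11 had no read in either control library, which allows up to 3 reads, or 0.173 and 0.158 CPM, and Rad21l had 2 and 1 reads. With lactate, 33 members averaged above 1 FPKM. The 6 that passed this level only in the lactate mean were Mei4, Ankrd31, Spata22, Tex12, Majin and Fbxo47, and none passed it only in the control mean. Majin did so through the first lactate library alone, with 0.78 FPKM in the second, and Spata22 overlapped between the groups, with 1.27 FPKM in the first control and 1.20 in the second lactate library.

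**Figure D1:**
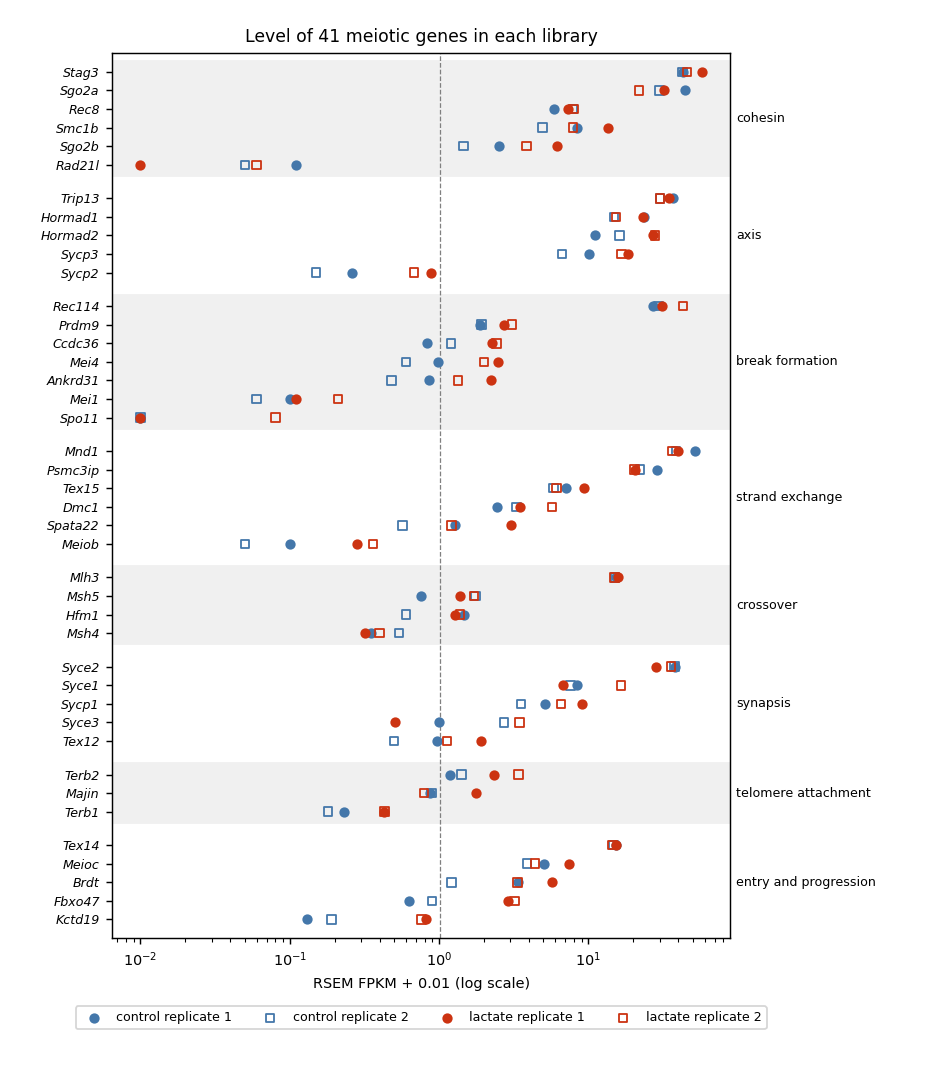
RSEM FPKM plus 0.01 (log axis) of each of the 41 genes in each library, grouped by step. Blue marks are control and red marks lactate libraries, circles the first and open squares the second replicate, and the dashed line stands at 1. Members range from Spo11, listed at 0 in both control libraries, to Mnd1 and Stag3 above 40 FPKM in the control mean, and red marks lie right of blue ones mainly among genes below 10 FPKM.

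The comparison of lactate with control asked whether the meiotic genes changed within 24 h. Groups of 2 libraries allow no permutation p below 0.333, so the test is edgeR's quasi-likelihood test fitted on all 18661 genes with enough reads. Calls needed more than a 2-fold difference and an adjusted p under 0.05. Of the 37 members tested, 2 were called higher (5.41%), against 0.552% of all genes tested, and 0 were called lower, against 0.348%. Fbxo47 and Kctd19, both of the last step, were the 2 that rose. At an unadjusted p under 0.05, 17 members were higher (45.9%), against 11.7% of all genes tested, and 0 were lower, against 11.4%. Each lactate library was above each control library in CPM for 21 of the 37 tested members, against 27.0% of all genes tested, and was below them for 4, against 25.9%. The median log2 fold change was 0.63 over the tested members and 0.01 over all genes tested.

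The 17 genes were Stag3, Sgo2b, Sycp2, Sycp3, Hormad2, Mei4, Ccdc36, Ankrd31, Dmc1, Meiob, Msh5, Hfm1, Terb1, Terb2, Fbxo47, Kctd19 and Brdt. Their log2 fold changes ran from 0.43 to 1.93, and 11 were over 2-fold. Their edgeR adjusted p-values ran from 0.0474 to 0.173, with 10 under 0.10. The 17 and the 11 include Meiob, which passed the filter on low counts only through the lactate libraries. DESeq2, the test used by the study, called 9 members higher, namely Sgo2b, Sycp2, Mei4, Ccdc36, Ankrd31, Hfm1, Terb2, Fbxo47 and Kctd19, against 1.14% of all genes tested, and 0 lower, against 0.868%. The number called with edgeR also turned on single libraries, and no call held in every setting with 1 library left out. For these settings the shares of all genes called are not given here. The log2 fold changes there were 1.53 to 1.87 for Fbxo47 and 1.78 to 2.10 for Kctd19. With the replicate number as a block in edgeR, 12 were called higher, against 4.08% of all genes tested. These 12 include Meiob, which passed the filter only through lactate, and Spata22, with a control library below its limit. The labels do not say that the numbers pair the libraries. The study showed a set of germline genes as upregulated in these same libraries, so a shared direction here is not independent evidence. It also found a term for meiotic break formation enriched among its upregulated genes. Beyond these libraries, it reported upregulated germline genes by qRT-PCR, which was not examined here. Further evidence, also not examined here, was ChIP-seq over its upregulated genes and a public Max knockdown in which germline genes were higher.

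**Figure D2:**
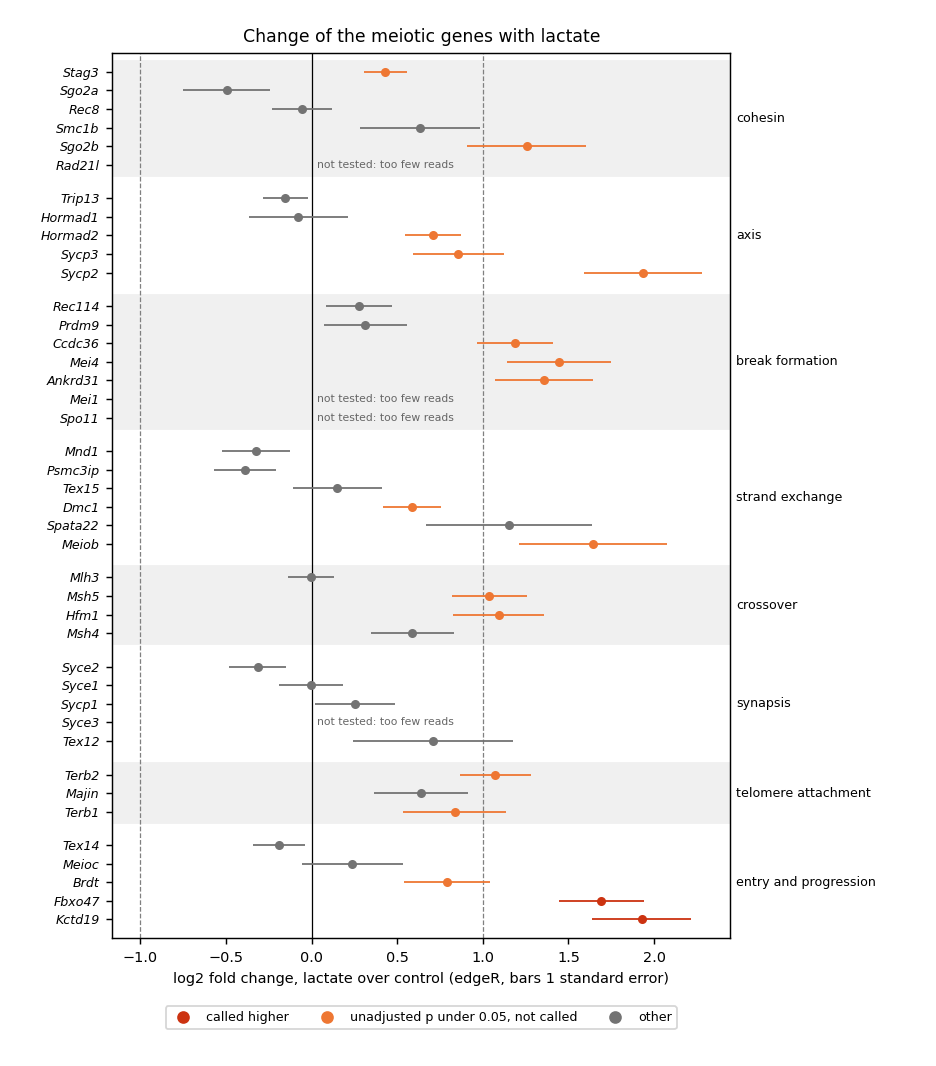
Log2 fold change of lactate over control for each tested member from edgeR, with bars of 1 standard error, grouped by step; dashed lines mark a 2-fold change either way. Red points are the 2 called genes, Fbxo47 and Kctd19, orange points the other 15 with an unadjusted p under 0.05, and all 17 lie right of 0.

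Sister chromatid cohesion in meiosis uses its own cohesin subunits. Of the 6 genes of this step 5 were tested, 2 of them were higher at an unadjusted p under 0.05, and the median log2 fold change was 0.43. Stag3, the meiotic STAG subunit, had the most reads of the step over the 4 libraries, with 1899 and 2069 reads in the control libraries and 2778 and 2872 with lactate. The groups did not overlap, at 109 ± 0.54 and 148 ± 2.73 CPM (SD, n = 2), but the fold was 1.35 and the edgeR adjusted p 0.12. Smc1b, the meiotic SMC subunit, had 678 and 400 control and 1081 and 694 lactate reads. Its first control library lay above the second lactate library in CPM (39.2 against 35.2). Each lactate library lay above the control library of the same number, though the labels do not pair them. The log2 fold change of Smc1b was 0.63 ± 0.35 (SE), with an edgeR adjusted p of 0.335. Rec8, the kleisin cleaved at the meiotic divisions, had 256 and 331 control and 273 and 322 lactate reads and a log2 fold change of -0.06. Rad21l, the second meiotic kleisin, was seen in 1 or 2 reads per library and was not tested.

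Sgo2a encodes the shugoshin that shields centromeric cohesin, and Sgo2b is its close copy on another chromosome. Sgo2a (chr1:57995971-58025899) had 2059 and 1511 control and 1546 and 1137 lactate reads, with a log2 fold change of -0.50 ± 0.25 (SE) and an edgeR adjusted p of 0.299. Sgo2b (chr8:63924694-63952248) had 153 and 97 control and 387 and 246 lactate reads, with a log2 fold change of 1.26 ± 0.35 (SE) and adjusted p-values of 0.113 in edgeR and 0.0107 in DESeq2. The groups of Sgo2b did not overlap and those of Sgo2a did, and the difference between both genes was not tested. Their transcripts align over 3781 bases at 87.9% identity, with a longest identical run of 101 bases, so reads from such stretches can be split or dropped by the counting. Sgo2a also shares 35.0% of its exonic bases with Kctd18 on the other strand, and its RSEM reads were 153% of its raw reads. The strand setting of the raw counts is not given in the sources used here.

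The axis proteins line the base of the chromatin loops. All 5 genes of this step were tested, 3 were higher at an unadjusted p under 0.05, and the median log2 fold change was 0.71. Sycp2, a core of the axial element (chr2:178345293-178407685), had 33 and 21 control and 127 and 92 lactate reads, from 1.51 ± 0.567 to 5.75 ± 1.53 CPM (SD, n = 2). Its log2 fold change of 1.93 ± 0.35 (SE) was close to that of Kctd19 (1.93), with adjusted p-values of 0.0571 in edgeR and 0.0013 in DESeq2. Sycp3, its partner in the axial element, had 139 and 92 control and 224 and 222 lactate reads, a fold of 1.81 and an edgeR adjusted p of 0.136. Of the exonic bases of Sycp3, 52.2% overlap Chpt1 on the other strand.

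The HORMA domain proteins mark unsynapsed axes, and TRIP13 strips them off once synapsis is reached. Hormad2 had 289 and 277 control and 496 and 483 lactate reads, without overlap, with a fold of 1.63 and an edgeR adjusted p of 0.0799. Hormad1 had 600 and 412 control and 596 and 421 lactate reads, and its log2 fold change of -0.08 ± 0.29 (SE) was smaller than its error. Trip13, which also acts at the spindle checkpoint of dividing cells, had 1231 and 1226 control and 1157 and 1182 lactate reads and a log2 fold change of -0.15. Sycp3 and Hormad1, whose promoter stretches above hold the same 3 matches, thus had log2 fold changes of 0.86 and -0.08.

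Double-strand breaks are made by SPO11 with a set of accessory proteins. Of the 7 genes of this step 5 were tested, 3 were higher at an unadjusted p under 0.05, and the median log2 fold change was 1.19. Their summed level was 28.9 and 27.2 CPM in the control and 46.9 and 46.3 CPM in the lactate libraries. Mei4, an accessory protein of break formation (chr9:81863670-82206007), had 41 and 26 control and 101 and 93 lactate reads, a fold of 2.72, and adjusted p-values of 0.0690 in edgeR and 0.0236 in DESeq2. Ccdc36, also known as Iho1, which recruits this machinery to axes, had 45 and 63 control and 126 and 133 lactate reads, a fold of 2.28, and adjusted p-values of 0.0587 in edgeR and 0.0275 in DESeq2. Ankrd31, a scaffold for the same proteins, had 94 and 71 control and 260 and 187 lactate reads, a fold of 2.56, and adjusted p-values of 0.0688 in edgeR and 0.00404 in DESeq2. In these 3 genes and in Prdm9, each lactate library lay above each control library in CPM. The same held for 27.0% of all genes tested.

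The other members of the step gave smaller or unresolved differences. Rec114, the partner of MEI4, had 242 and 295 control and 288 and 400 lactate reads, overlapping groups and a log2 fold change of 0.28 ± 0.19 (SE), with an edgeR adjusted p of 0.446, and 26.9% of its exonic bases overlap Nptn on the other strand. Prdm9, the histone methyltransferase that places breaks at hotspots, had 69 and 57 control and 86 and 80 lactate reads and a log2 fold change of 0.31 ± 0.24 (SE), with an edgeR adjusted p of 0.488. Mei1 had 8 and 4 control and 9 and 17 lactate reads and was not tested. Spo11, the catalytic subunit, was without a read in control and had 1 and 4 reads with lactate, and a difference at this depth could not be shown. So 3 accessory genes were higher at an unadjusted p under 0.05, while the gene of the cutting enzyme had at most 4 reads.

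Strand exchange is carried out by DMC1 on single-stranded DNA. All 6 genes of this step were tested, 2 were higher at an unadjusted p under 0.05, and the median log2 fold change was 0.37. Dmc1, the meiotic recombinase, had 143 and 164 control and 236 and 251 lactate reads, at 8.46 ± 0.265 and 12.7 ± 0.0195 CPM (SD, n = 2), with a fold of 1.5 and an edgeR adjusted p of 0.12. Psmc3ip and Mnd1 encode the HOP2 and MND1 heterodimer that stimulates the recombinases. Psmc3ip had 525 and 444 control and 394 and 392 lactate reads and Mnd1 had 571 and 450 control and 434 and 432 lactate reads, both with each lactate library below each control library. Their log2 fold changes were -0.39 ± 0.18 and -0.33 ± 0.20 (SE), with edgeR adjusted p-values of 0.264 and 0.376. The recombinase and its 2 helpers thus lay on opposite sides of control, and this contrast was not tested. Of the exonic bases of Psmc3ip, 21.2% overlap Mlx on the other strand.

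Meiob and Spata22 encode partners that bind single-stranded DNA together with RPA. Meiob had 4 reads in each control library and 12 and 15 with lactate, with a log2 fold change of 1.64 ± 0.43 (SE) and an edgeR adjusted p of 0.103, and it passed the filter on low counts only through the lactate libraries. Spata22 had 18 and 10 control and 43 and 23 lactate reads, with a log2 fold change of 1.15 ± 0.49 (SE) and an edgeR adjusted p of 0.225. Its exons share 80.5% of their bases with Gm49340 on the same strand. Tex15, needed for loading of recombinases at breaks, had 649 and 513 control and 809 and 554 lactate reads, overlapping groups and a log2 fold change of 0.15.

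Crossovers form where MSH4 and MSH5 hold a joint molecule and MLH3 helps to resolve it. All 4 genes of this step were tested, 2 were higher at an unadjusted p under 0.05, and the median log2 fold change was 0.81. Msh5 had 51 and 66 control and 132 and 121 lactate reads, a fold of 2.05 and an edgeR adjusted p of 0.0688. Hfm1, a meiotic DNA helicase, had 74 and 54 control and 155 and 135 lactate reads, a fold of 2.13, and adjusted p-values of 0.0887 in edgeR and 0.0499 in DESeq2. Msh4 had 32 and 41 control and 53 and 63 lactate reads, a log2 fold change of 0.59 ± 0.24 (SE) and an edgeR adjusted p of 0.217. Mlh3, which also serves mismatch repair, had 1117 and 1129 control and 1216 and 1154 lactate reads and overlapping groups. In the RSEM counts the log2 fold changes of Msh5, Hfm1 and Msh4 were 0.75, 0.65 and -0.32, so that of Msh4 turned its sign.

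Synapsis joins homologs through the transverse filament protein SYCP1 and the central element. Of the 5 genes of this step 4 were tested, 0 were higher at an unadjusted p under 0.05, and the median log2 fold change was 0.12. Sycp1 had 257 and 198 control and 312 and 263 lactate reads and a log2 fold change of 0.25 ± 0.23 (SE). Syce1 had 203 and 191 control and 186 and 231 lactate reads. Syce2 had 429 and 437 control and 324 and 414 lactate reads, with a log2 fold change of -0.32 ± 0.17 (SE) and an edgeR adjusted p of 0.317. Tex12, the partner of SYCE2, had 12 and 7 control and 20 and 13 lactate reads, and Syce3 had 2 and 7 control and 3 and 9 lactate reads and was not tested. The summed level of the step was 52.2 and 44.3 CPM in control and 45.5 and 47.1 CPM with lactate, with overlap. In FPKM the groups of Sycp1 did not overlap, at 5.09 and 3.53 in control and 9.07 and 6.55 with lactate. Without overlap in FPKM, Tex12 also lay higher and Syce2 lower with lactate, while Syce1 and Syce3 overlapped.

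Telomere attachment in prophase tethers chromosome ends to the nuclear envelope through the complex of TERB1, TERB2 and MAJIN. All 3 genes were tested, 2 were higher at an unadjusted p under 0.05, and in all 3 the groups did not overlap in CPM, where 27.0% of all genes tested had both lactate libraries higher. Terb2 had 65 and 78 control and 166 and 151 lactate reads, a fold of 2.10, and adjusted p-values of 0.0615 in edgeR and 0.0312 in DESeq2. Terb1 had 14 reads in each control library and 27 and 26 with lactate, with a fold of 1.78 and an edgeR adjusted p of 0.173. Majin had 34 and 31 control and 59 and 48 lactate reads, with a fold of 1.56 and an edgeR adjusted p of 0.229. Its FPKM did overlap, at 0.86 and 0.88 in control and 1.77 and 0.78 with lactate. The summed level of the 3 genes was 6.53 and 6.48 CPM in control and 13.6 and 11.4 CPM with lactate.

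The last step holds genes for entry into and progression through prophase. All 5 were tested, 3 were higher at an unadjusted p under 0.05 and 2 of these were called, and the median log2 fold change was 0.79. Kctd19, known as a cofactor of a meiotic transcription regulator (chr8:105382807-105413502), had 11 and 15 control and 54 and 51 lactate reads, from 0.713 ± 0.109 to 2.75 ± 0.226 CPM (SD, n = 2). It rose 3.81-fold, with a log2 fold change of 1.93 ± 0.29 (SE) and adjusted p-values of 0.0492 in edgeR and 0.0190 in DESeq2. Fbxo47, an F-box protein needed for stable synapsis (chr11:97853826-97884154), had 21 and 29 control and 81 and 90 lactate reads, from 1.37 ± 0.222 to 4.46 ± 0.145 CPM. It rose 3.23-fold, with a log2 fold change of 1.69 ± 0.25 (SE) and adjusted p-values of 0.0474 in edgeR and 0.00723 in DESeq2. Both calls stood close to the threshold, and in the RSEM counts their edgeR adjusted p-values were 0.0648 and 0.0677.

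Brdt, the testis bromodomain protein, had 89 and 69 control and 156 and 134 lactate reads, a fold of 1.73 and an edgeR adjusted p of 0.140. Meioc, which sustains the meiotic programme after entry, had 357 and 249 control and 447 and 311 lactate reads, with overlap and a log2 fold change of 0.24 ± 0.29 (SE). Tex14, a protein of the intercellular bridges between germ cells, had 1306 and 1179 control and 1184 and 1123 lactate reads and a log2 fold change of -0.19 ± 0.15 (SE). In control, Tex14 and Meioc thus had at least 249 reads per library and Kctd19 and Fbxo47 at most 29.

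The fold changes differed with the level of the members. Of the 16 tested members with a mean of 1 to 10 CPM over the 4 libraries, 12 were higher at an unadjusted p under 0.05, where 14.1% of all genes in that range were, and their median log2 fold change was 1.08 against 0.07. Of the 19 members at 10 CPM or more, 4 were higher, where 9.68% of all genes were, and the medians were -0.00 and -0.03. These 4 were Stag3, Sgo2b, Hormad2 and Dmc1. Below 1 CPM stood Meiob and Tex12. Meiob was higher, but it passed the filter on low counts only through the lactate libraries. The 11 members over 10 FPKM in control included Stag3 and Hormad2 from the 17, and the other 9 of them had log2 fold changes from -0.50 to 0.28. The summed CPM of all 41 members was 799 and 650 in control and 863 and 740 with lactate, and these ranges overlapped.

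**Figure D3:**
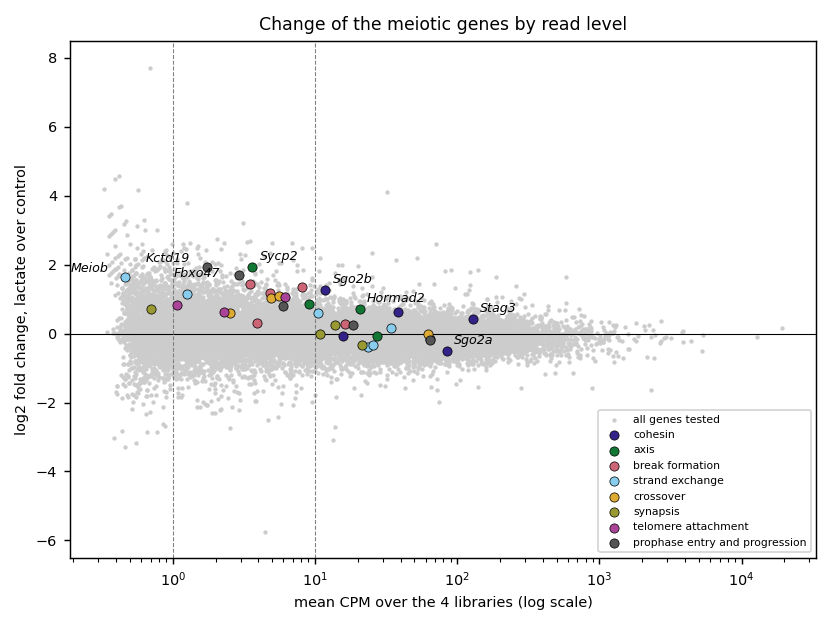
Log2 fold change of lactate over control (edgeR) against the mean CPM over the 4 libraries (log axis) for all 18661 genes tested, in grey, and for the 37 tested members, coloured by step, with dashed lines at 1 and 10 CPM. Members between 1 and 10 CPM lie mostly above 0, with a median of 1.08, and those at 10 CPM or more lie on both sides of 0.

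Many members have a relative that serves in dividing cells, and the levels of both can be compared per length by FPKM. Stag3 stood at 205%, 229%, 198% and 240% of Stag2 and at 72.5%, 120%, 91.0% and 117% of Stag1, in the order first and second control, first and second lactate library. Smc1b stood at 8.64% to 19.7% of Smc1a. Rec8 stood at 5.45% to 8.59% of Rad21, and Rad21l was at most 0.0924% of it. The meiotic STAG gene thus lay above Stag2 in all 4 libraries and above Stag1 in the second library of each group, and the meiotic kleisins lay below 10% of theirs.

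Sgo2b stood at 7.81% and 6.05% of Sgo1 in control and 17.1% and 13.2% with lactate, and Sgo2a at 138% and 125% in control and 89.2% and 75.2% with lactate. Msh5 stood at 0.335% and 0.741% of Msh6 in control and 0.965% and 1.12% with lactate. In this ratio Msh6 itself was lower with lactate (log2 fold change -0.69 ± 0.14, SE, edgeR adjusted p = 0.0640). The FPKM of Msh5 overlapped between the groups, at 0.75 and 1.74 in control and 1.38 and 1.71 with lactate. Of the 15 mitotic counterparts tested, 0 were higher and 2 lower at an unadjusted p under 0.05, against 11.7% and 11.4% of all genes, 0 were called by edgeR or DESeq2, and the median log2 fold change was -0.12.

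**Figure D4:**
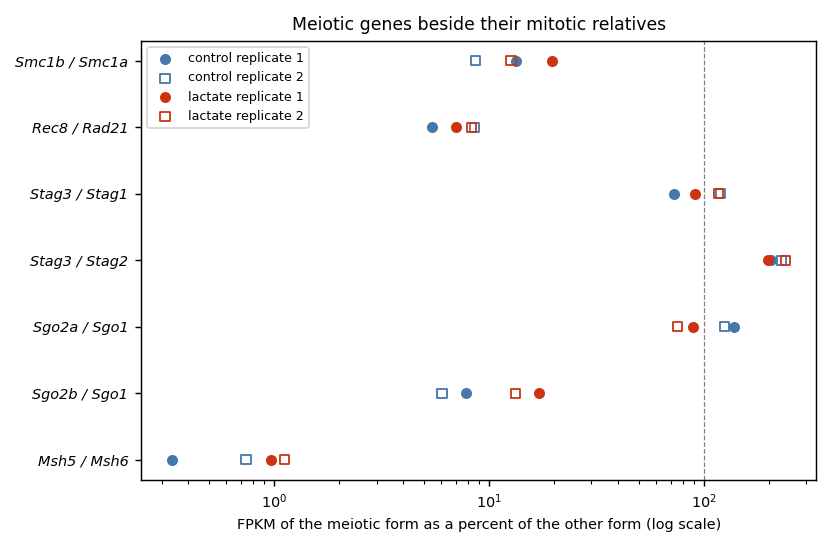
FPKM of a meiotic gene as a percent of the FPKM of its relative used in mitosis (log axis) in each library; blue is control, red lactate, circles the first and open squares the second replicate, and the dashed line marks equal levels. Stag3 lies near or right of the line, Msh5 lies near 1% or less, and for Sgo2b and Msh5 the lactate marks lie right of the control marks. For Msh5 the FPKM of the gene itself overlapped between the groups, and Msh6 was lower with lactate.

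Other meiosis genes were read from a list of 27 genes found in the files. Of the 22 tested, 7 were higher at an unadjusted p under 0.05 (31.8%, against 11.7% of all genes) and 1 was lower. The 7 include Rnf212, which passed the filter on low counts only through the lactate libraries. Of the 22, 0 were called by edgeR or DESeq2, and the median log2 fold change was 0.38. Stra8, which gates entry into meiosis in response to retinoic acid, had 147 and 165 control and 290 and 296 lactate reads and a log2 fold change of 0.83. Genes of homologous recombination that dividing cells also use gave 5 higher and 8 lower of 33 tested, with a median of -0.05. Of all genes tested, 11.7% were higher and 11.4% lower at the same threshold. Factors that load and release cohesin in all dividing cells gave 0 higher and 2 lower of 11, with a median of -0.12.

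Markers of cell types were read beside the members. At an unadjusted p under 0.05, 11.7% of all genes tested were higher and 11.4% lower. The ESC list was high in all libraries, at 6348 and 6780 summed CPM in control and 6816 and 7602 with lactate. Of its 12 genes 4 were higher and 2 lower at an unadjusted p under 0.05, and Pou5f1, which was neither, had 6911 and 9811 control and 5386 and 7955 lactate reads. Of 20 genes of late spermatogenic cells, 7 could be tested, 2 of these were higher at an unadjusted p under 0.05, and Pgk2, Acr, Tnp1, Catsper1 and Akap4 had no read in any library. The summed level of that list was 47.5 and 45.4 CPM in control and 63.0 and 66.4 with lactate. Of 14 oocyte genes 4 were tested and 0 were higher, with sums of 10.1 and 11.3 in control and 14.9 and 12.8 with lactate.

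Of 11 primordial germ cell genes, 10 were tested. Of these 5 were higher and 2 lower at an unadjusted p under 0.05, against 11.7% and 11.4% of all genes tested. The sums overlapped, at 620 and 555 CPM in control and 645 and 544 with lactate. Dazl, an RNA-binding protein of germ cells, had 1016 and 722 control and 1883 and 1442 lactate reads, and Ddx4, the germ cell RNA helicase, had 174 and 179 control and 303 and 297 lactate reads. The 2 lower genes, named after their values were seen, were Dnd1, with 128 and 230 control and 54 and 111 lactate reads, and Prdm14, with 810 and 922 control and 698 and 752 lactate reads. Of 14 genes that mark two-cell-like cells, a rare state of ESC cultures, 10 were tested, 9 were higher at an unadjusted p under 0.05, and the sums were 24.1 and 19.6 CPM in control and 59.4 and 51.9 with lactate. The 16 feeder fibroblast genes summed to 745 and 1024 CPM in control and 778 and 855 with lactate. Of these, 2 were higher (12.5%, near the 11.7% of all genes tested) and 1 lower at an unadjusted p under 0.05. The part of these cell types in the members' values was not tested, and in bulk RNA a change in the number of expressing cells and a change in RNA per cell cannot be told apart.

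Both deposited countings were compared for the members. RSEM gave the tested members a median of 73.6% of their raw reads, and all tested genes 81.1%. Shares of 50.0% or less were found for Msh4 (33.3%), Msh5 (37.0%), Hfm1 (41.9%), Majin (44.2%), Hormad2 (46.0%), Dmc1 (47.5%), Meiob (48.6%) and Terb2 (50.0%). These 8 were 21.6% of the tested members, and 21.6% of all tested genes stood at or under 50%. Of the 17 members higher in the raw counts, 16 were higher in the RSEM counts and 13 had an unadjusted p under 0.05 there, where 10.9% of all genes tested did. Meiob had too few RSEM reads to be tested. None was called by edgeR in the RSEM counts, where 0.173% of all genes were called higher.

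**Figure D5:**
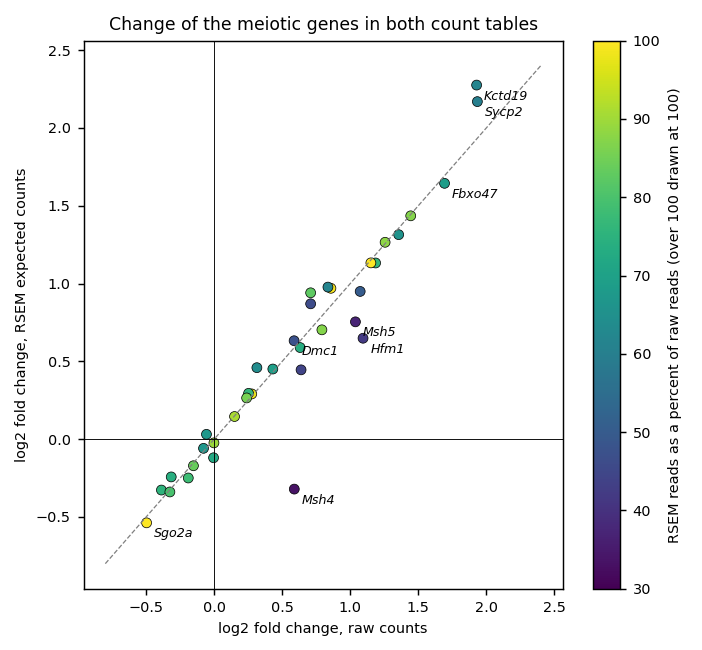
Log2 fold change of lactate over control for each member tested in both tables, from RSEM expected counts (vertical) against raw counts (horizontal), with equality as the dashed line; colour gives the RSEM reads as a percent of the raw reads. Most members lie near the line, and Msh4, with RSEM reads at 33.3% of its raw reads, lies far below it at -0.32.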

How the data were processed

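RNA-seq of 2 control and 2 lactate-supplemented AB2.2 libraries was analysed. The authors trimmed reads with cutadapt 1.16, mapped them with STAR to mm10 with GENCODE annotation and deposited raw read counts per gene and, per library, RSEM expected counts, TPM and FPKM. The program that counted the 1153 transposable element families is not given in the sources used here, and these rows were left out of library sizes and tests.

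Raw counts were tested in R 4.3.3 with edgeR 4.0.16 (filterByExpr by condition, which kept genes above 0.5335 CPM in 2 libraries, TMM factors of 0.959, 0.996, 1.004 and 1.043, glmQLFTest in its legacy form, no replicate term), with Benjamini-Hochberg adjustment over 18661 genes. The biological coefficient of variation was 15.9%. The filter left out Rad21l, Spo11, Mei1 and Syce3, and Meiob, Spata22 and Tex12 passed it with at least 1 control library below the limit. An SE is the log2 fold change divided by the square root of F. The members, steps and lists were chosen with earlier results of these data known. All members are accounted for, and reads, a fold change and an adjusted p were given for members with an unadjusted p under 0.05 and for the tested genes of the break formation step. From other lists, the mitotic counterparts, Stra8, Dazl, Ddx4 and Pou5f1 were named by rule. Expected counts were rounded before testing. Some of the mitotic counterparts are not reported here by name. No 2 libraries of a group were alike within counting noise. Reads are not unique molecules, so the limit of 3 reads covers counting error only.

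Alternatives were a replicate block, DESeq2 1.42.0, the RSEM expected counts, TPM for levels, calls by the adjusted p alone, each library left out in turn, scaling by library totals, by upper quartiles or by RLE, a minimum of 10 counts per library or no minimum, and limma 3.58.1 on log2 FPKM with a pseudocount of 1 or 0.1 for genes with a mean FPKM above 0.1. Positions and exon overlaps came from GENCODE M21 on GRCm38, and transcripts were aligned with blastn 2.17.0. The edgeR and DESeq2 steps were tested on simulated data, and the limma step was not.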

Additional observations from a re-analysis of the deposited data

How the results depend on the processing

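The number of members called higher was 2 with all libraries and stayed 2 with RLE or upper-quartile factors, library totals alone, at least 10 counts in every library, and the adjusted p alone. It was 9 with DESeq2 and 9 without the filter on low counts, the same genes in both. It was 0 with RSEM expected counts, where 0.173% of all genes were called higher. Limma on log2(FPKM + 1) or log2(FPKM + 0.1) called no gene of any kind, so its count of members could only be 0. With 1 library left out it ran from 0 to 11. None was called lower under any of these. The labels number the libraries of both groups but name no shared batch, so the numbers alone do not pair them. With 2 pairs, the difference between first and second libraries correlated between the groups at r = 0.561 over 18661 genes. With a replicate block 12 members were called higher, where 4.08% of all genes were. Among these 12 were Meiob, which passed the filter on low counts only through the lactate libraries, and Spata22. At an unadjusted p under 0.05, Sgo2a, Trip13, Psmc3ip, Mnd1, Syce2 and Tex14 were lower with the block. For this count of 6 lower members the share of all genes is not given here. That count was 0 with all libraries and no block, 2 without the filter, and 0 to 3 with 1 library left out. Members higher at an unadjusted p under 0.05 numbered 12 to 24 over all settings. The median log2 fold change of 0.63 was 0.31 on log2(FPKM + 1) and 0.44 to 0.77 with 1 library left out. Of other meiosis genes, 0 were called, 1 without the filter and 1 with the replicate block, and the number also changed with 1 library left out. The cause of these shifts was not tested.

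Of single-member values with all libraries kept, 348 of 367 kept their direction, and 137 of 148 did with 1 library left out. Of the 7 members with a reversal, Msh4 had a log2 fold change of 0.59 and the other 6 lay between -0.08 and 0.24. Rec8 (-0.06) was 0.0091 with library totals alone, 0.031 with RSEM counts, 0.14 and 0.15 on log2(FPKM + 1) and log2(FPKM + 0.1), and -0.18 to 0.067 with 1 library left out. Hormad1 was 0.017 and 0.018 on these FPKM scales and -0.42 to 0.29 with 1 library left out. Tex15 was -0.22 to 0.43 and Meioc -0.12 to 0.595 with 1 library left out. Msh4 was -0.32 with RSEM counts and -0.086 and -0.23 on the FPKM scales. Mlh3 was 0.030 with upper-quartile factors, 0.064 with totals, 0.010 with at least 10 counts, 0.019 and 0.020 on the FPKM scales and -0.10 to 0.076 with 1 library left out. Syce1 was 0.028, 0.066, 0.0076, 0.38 and 0.41 under these settings and -0.12 to 0.10. Among all called genes, 61.3% were higher, and 73.0% with library totals alone. Depth limited Spo11, Rad21l, Mei1 and Syce3, which had at most 17 reads in a library.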

Other observations

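Among the other meiosis genes higher at an unadjusted p under 0.05 was Rnf212, a crossover factor named here after its values were seen. It had 5 and 1 control and 17 and 13 lactate reads and passed the filter on low counts only through the lactate libraries. RSEM gave it 11.1% of its raw reads, and its FPKM were 0.14 and 0 in control and 0.10 and 0.21 with lactate, so both countings differ in what they show of it.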
